A study of Mus musculus with 48 samples.

Results

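Accessible chromatin was compared between Ttad and Tterm cells that carried a Dusp5 guide and were recovered from tumours of aged mice. The 4 libraries, 2 of Ttad and 2 of Tterm, were chosen by name from the 48 in the series, and all 53868 peaks of the deposited table entered the comparison. The assay was ATAC-seq, in which a transposase cuts open chromatin so that reads pile up at accessible sites. The study delivered a guide RNA and an ametrine reporter by lentivirus to Cas9-expressing, CD45.1 OT-1 CD8 T cells, whose receptor recognises an ovalbumin peptide, and moved the cells into hosts that then received B16-OVA melanoma. Sorted cells were collected at day 15 and sequenced in 21 groups set by guide, host age and sorted state. Both groups compared here are labelled Dusp5KO, were in hosts read as aged from the letter A in the titles, and lack Slamf6 on the surface: Ttad, labelled age-associated dysfunctional, is also negative for Tim-3, and Tterm, labelled terminally exhausted, is positive for it. Tim-3 is the product of Havcr2, so differences at Slamf6 and Havcr2 touch the sort itself. The study describes the libraries of a group as biological replicates, each pooled from independent mice, with 5000 to 50000 cells per combination of guide and state. The p-values therefore measure the spread between pools and not between single mice. Within the Ttad or Tterm pool, fewer cells of a type and less accessibility per cell cannot be told apart.

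T cells that meet antigen for a long time in a tumour pass from a progenitor state, kept by transcription factors such as TCF-1 (Tcf7), ID3 and BACH2, towards a terminal state with inhibitory receptors and with the regulators BLIMP-1 (Prdm1) and ID2. Accessibility at enhancers follows these states and often changes at many sites of one locus together. DUSP5 is a nuclear phosphatase that removes activating phosphates from ERK, the last kinase of the MAP kinase cascade.

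Depth differed between the libraries. The Ttad libraries held 8887064 and 7786663 reads in peaks, and the Tterm libraries 13535015 and 5638413, the last being the lowest of the 48 libraries (range 5638413 to 29942755). Across peaks, log2(value + 1) correlated with r = 0.946 (Pearson, a description) between the Ttad libraries, 0.944 between the Tterm libraries and 0.919 to 0.944 between the groups. Peaks of 13 T cell identity genes (Cd3e, Cd8a, Lck and others) summed to 37626 to 39547 normalized reads in Ttad and 38486 to 39830 in Tterm. Some markers of other cells had no peak assigned, among them Cd79a, Cd79b and Ms4a1 (B cells), Adgre1, Csf1r and Lyz2 (myeloid cells), Foxp3 (regulatory T cells) and Dct, Tyr and Tyrp1 (melanoma). Other members of the same lists did have peaks, such as Pax5 with 5, Itgam with 7, Fcgr3 with 8 and Pmel with 4. Normalized reads are read counts divided by a factor for each library, and comparisons of level between peaks are not made because peaks differ in width.

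Sequence is shown first for promoters of genes at which the 2 states differed, with progenitor genes, a T cell receptor subunit and terminal or cytotoxic genes side by side. Each run is the 200 bases before an annotated start whose window overlapped a called peak, from RefSeq on GRCm38.p6, 5′ to 3′ on the gene's strand. Capitals mark AP-1 (TGANTCA), RUNX (TGTGGT), TCF/LEF (CTTTGA) and ETS (GGAAGT) matches on either strand. Promoters in peaks that were higher in Ttad are Id3 (chr4:136143622-136143821, plus strand), Slamf6 (chr1:171917262-171917461, plus strand), Xcl1 (chr1:164935523-164935722, minus strand) and Cd3d (chr9:44981586-44981785, plus strand). Promoters in peaks that were lower in Ttad are Havcr2 (chr11:46454731-46454930, plus strand), Gzmb (chr14:56262335-56262534, minus strand) and Prf1 (chr10:61297636-61297835, plus strand).
Id3: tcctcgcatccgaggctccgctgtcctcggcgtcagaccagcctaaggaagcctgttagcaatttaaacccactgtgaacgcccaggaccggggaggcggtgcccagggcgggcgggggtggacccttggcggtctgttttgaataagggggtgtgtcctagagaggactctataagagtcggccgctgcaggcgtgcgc
Slamf6: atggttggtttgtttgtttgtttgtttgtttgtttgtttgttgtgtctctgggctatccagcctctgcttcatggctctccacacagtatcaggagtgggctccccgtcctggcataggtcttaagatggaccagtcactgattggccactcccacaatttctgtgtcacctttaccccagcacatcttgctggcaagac
Xcl1: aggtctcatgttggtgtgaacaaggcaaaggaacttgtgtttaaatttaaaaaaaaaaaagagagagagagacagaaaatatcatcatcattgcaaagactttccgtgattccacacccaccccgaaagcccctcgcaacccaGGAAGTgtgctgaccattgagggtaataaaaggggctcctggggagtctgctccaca
Cd3d: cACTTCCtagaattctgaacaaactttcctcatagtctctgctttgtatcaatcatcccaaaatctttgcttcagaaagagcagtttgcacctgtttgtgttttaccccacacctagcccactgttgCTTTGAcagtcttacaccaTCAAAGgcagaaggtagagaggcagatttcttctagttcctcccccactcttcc
Havcr2: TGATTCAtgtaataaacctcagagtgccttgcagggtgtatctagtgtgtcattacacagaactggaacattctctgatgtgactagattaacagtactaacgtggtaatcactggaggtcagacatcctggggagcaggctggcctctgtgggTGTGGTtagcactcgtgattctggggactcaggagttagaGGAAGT
Gzmb: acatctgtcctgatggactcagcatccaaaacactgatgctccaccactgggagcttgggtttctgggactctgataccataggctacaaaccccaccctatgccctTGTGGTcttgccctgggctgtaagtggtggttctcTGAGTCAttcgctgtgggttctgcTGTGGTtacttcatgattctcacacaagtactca
Prf1: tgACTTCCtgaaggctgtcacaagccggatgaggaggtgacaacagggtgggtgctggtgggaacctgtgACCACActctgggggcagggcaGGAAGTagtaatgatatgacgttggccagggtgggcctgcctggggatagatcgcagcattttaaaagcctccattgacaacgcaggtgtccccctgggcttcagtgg

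The Id3 and Slamf6 runs held none of these 4 words, and the Havcr2 and Gzmb runs each held 1 AP-1 word and at least 1 RUNX word. Listed promoters not shown did not all divide this way. The Cdkn1a and Entpd1 runs, in lower peaks, held none of the 4 words. Those of Cd101 and Cx3cr1, in higher peaks, each held a RUNX word. Over whole windows of 300 bases (250 before to 50 after a start), 13674 windows overlapped a peak, 346 of them a peak higher in Ttad and 234 a peak lower in Ttad. The AP-1 word was in 13.7% of windows in lower peaks, 6.07% in higher peaks and 5.11% of all windows in a peak. For peaks called by both limma and edgeR these shares were 18.6% (29 of 156 windows) and 5.97% (12 of 201). The RUNX word was in 20.5% of lower and 17.9% of higher windows and in 1778 of all 13674, TCF/LEF in 10.7%, 13.6% and 11.5%, and ETS in 24.4%, 27.2% and 28.2%. Of 5 other words, NFAT (TGGAAA) was in 16.2%, 16.5% and 16.3% of the same sets, KLF (CACCC) in 66.2%, 63.0% and 63.9%, E-box (CANNTG) in 68.8%, 63.9% and 63.0%, CRE (TGACGTCA) in 0.855%, 2.60% and 3.30%, and NR4A (AAAGGTCA) in 3, 6 and 126 windows. These shares were not tested, windows of one peak can overlap, and an absent word says only that these letters were not in the window. Median GC content was 60.7% in lower, 57.8% in higher and 61.7% in all windows.

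Ttad and Tterm cells with the Dusp5 guide differed at 3955 peaks, 7.34% of those tested. Of these, 1821 were higher in Ttad (3.38% of all peaks) and 2134 lower (3.96%), and 1497 differed by at least 1 on the log2 scale. Without Tterm replicate 1 the balance turned, with 2382 higher and 1733 lower of 4115. Called peaks near the progenitor genes Tcf7, Id3 and Ccr7 were more open in Ttad, and those near Ccl3, Ccl4, Ccl5, Ifng and Prdm1 were less open. Other genes of the same kinds went the other way. The progenitor gene Myb had 3 of 14 peaks lower and the chemokine gene Xcl1 4 of 18 higher. Calls are adjusted p under 0.05 (limma on log2(value + 1), Benjamini-Hochberg over all peaks). The spread of each peak was pooled over all 48 libraries, so the standard errors below do not measure the 4 libraries alone. With only the compared groups fitted, 1310 peaks were called. edgeR on whole reads called 2846 peaks (5.28%), of which 2785 were also called by limma in the same direction (1174 higher, 2.18%, and 1611 lower, 2.99%, together 5.17% of all peaks). Without Tterm replicate 2, the shallowest library, 1557 peaks were called (678 higher, 1.26%, and 879 lower, 1.63%, together 2.89%). Of the 3955 peaks, 3944 kept their sign without it, and 689 were called without each of the 4 libraries in turn. The Ttad and Tterm values did not overlap at 3880 of the called peaks and at 43.6% of all peaks.

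**Figure D1:**
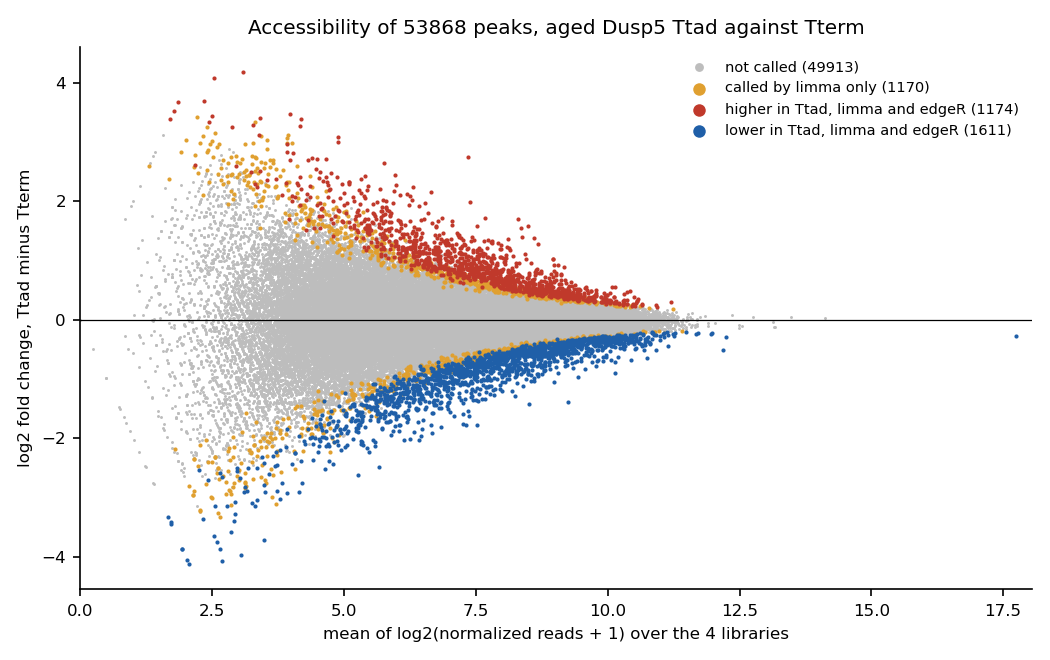
Log2 fold change of each peak (Ttad minus Tterm, y axis) against its mean log2(normalized reads + 1) over the 4 libraries (x axis), with 1 point per peak. Calls made by limma alone (1170 peaks, orange) lie mostly at the edge of the uncalled peaks, and the 2785 calls made by both tools (red and blue) lie beyond it.

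Promoters made up a smaller share of the called peaks than of all peaks, a difference that was not tested. Promoter windows marked 10251 of the 53868 peaks, but 14.5% of peaks higher in Ttad and 8.81% of those lower. Gene bodies away from promoters held 44.7% of all peaks, 44.9% of the higher and 50.0% of the lower. Weak peaks were less certain: of 274 called peaks with a mean under 25 normalized reads over the 48 libraries, 79 were called by both tools.

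Where peaks of progenitor and memory genes were called, most were higher in Ttad. Of 213 peaks at 17 such genes, 46 were higher (21.6%, against 3.38% of all peaks) and 6 lower, and 41 and 5 were called by both tools. Their median log2 fold change was 0.29, against 0.00 over all peaks. Without Tterm replicate 2 the counts were 32 and 4. The genes of this and the other lists were chosen with earlier results of these data known. List counts therefore describe the genes and are not independent evidence. At 12 of the 17 genes at least 1 peak was higher, and at Klf2 and Satb1, among others, no peak was called.

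Tcf7, which encodes the progenitor factor TCF-1, had 7 of 12 peaks higher and none lower. The called peak of smallest p, 30202 bp from the gene (chr11:52313585-52314948), held 316 and 306 normalized reads in Ttad and 150 and 163 in Tterm. Both Ttad libraries lay far above both Tterm libraries, with a log2 difference of 0.99 ± 0.13 (standard error; adjusted p = 6.3e-08). The peak over its promoter held 289 and 281 reads in Ttad and 153 and 112 in Tterm (log2 1.11 ± 0.19, adjusted p = 1.56e-05). The strongest Tcf7 peak did not pass the test, with 837 and 864 against 792 and 799 reads.

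Id3, which holds E protein factors in check in progenitor and memory cells, had 4 of 7 peaks higher. The peak of smallest p (chr4:136106423-136107357, 36465 bp away) held 517 and 598 reads in Ttad and 182 and 196 in Tterm, so every Ttad value lay above every Tterm value. Its log2 fold change was 1.55 ± 0.18 (adjusted p = 3.08e-10). A neighbouring called peak was assigned to Rpl11, a ribosomal protein gene, with 725 and 749 reads in Ttad and 434 and 347 in Tterm. The Id3 promoter peak held 227 and 292 reads against 141 and 168 (log2 0.74 ± 0.18, adjusted p = 0.00444). It was not called without Ttad replicate 2 (adjusted p = 0.147) or Tterm replicate 1 (0.0741).

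Ccr7, the receptor that guides naive and central memory cells to lymph nodes, had 8 of 11 peaks higher, 6 of them in every fit that left out a library. At the peak of smallest p (chr11:99170736-99171681) the Ttad libraries held 234 and 236 reads and the Tterm libraries 99.4 and 53.6. The Ttad values were nearly equal and well above both Tterm values (log2 1.67 ± 0.24, adjusted p = 2.71e-07). Cxcr5, a follicle-homing chemokine receptor found on progenitor cells, had 3 of 9 peaks higher, with 135 and 150 reads in Ttad and 57.9 and 48.9 in Tterm at the peak of smallest p (log2 1.40 ± 0.22, adjusted p = 3.49e-06). Slamf6, the surface marker absent from both sorted groups, had 4 of 6 peaks higher, and 2 without Tterm replicate 2. Its peak of smallest p held 221 and 152 reads in Ttad and 69.5 and 53.6 in Tterm (log2 1.57 ± 0.25, adjusted p = 5.02e-06), with no overlap between the groups. The Slamf6 promoter peak held 277 and 219 against 185 and 119 reads and was not called without Tterm replicate 2 (adjusted p = 0.379) or without Ttad replicate 1 (0.132).

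The survival gene Bcl2 had 6 of 23 peaks higher, 2 of 23 without Tterm replicate 2, and at its peak of smallest p Ttad held 212 and 279 reads and Tterm 77.2 and 117 (log2 1.35 ± 0.25, adjusted p = 8.26e-05). Bach2, a repressor that favours memory over effector fate, had 6 of 35 peaks higher, with 428 and 423 reads in Ttad and 188 and 252 in Tterm at the peak of smallest p (log2 0.96 ± 0.17, adjusted p = 2.35e-05). Both loci were higher in part only: the strongest Bach2 peak held 2772 and 3125 reads in Ttad and 3239 and 3200 in Tterm and did not pass the test. Xcl1, a chemokine of progenitor exhausted cells, had 4 of 18 peaks higher, and 1 without Tterm replicate 2. The one of smallest p held 65.9 and 110 reads in Ttad and 17.4 and 4.66 in Tterm (log2 3.08 ± 0.59, adjusted p = 0.000153). Without Tterm replicate 2, the library at 4.66 reads, it was not called (log2 2.23, adjusted p = 0.0638).

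Not all listed genes went the same way. Myb, a factor of self-renewing T cells, had 3 of 14 peaks lower and none higher. Its peak of smallest p held 246 and 199 reads in Ttad and 640 and 548 in Tterm (log2 -1.42 ± 0.19, adjusted p = 7.69e-08). The Tterm libraries were thus well above the Ttad libraries at this Myb peak. Lef1, a partner of TCF-1, had 2 peaks lower and 1 higher of 16, with 403 and 488 against 713 and 809 reads at the peak of smallest p (log2 -0.78 ± 0.12, adjusted p = 1.88e-06).

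**Figure D2:**
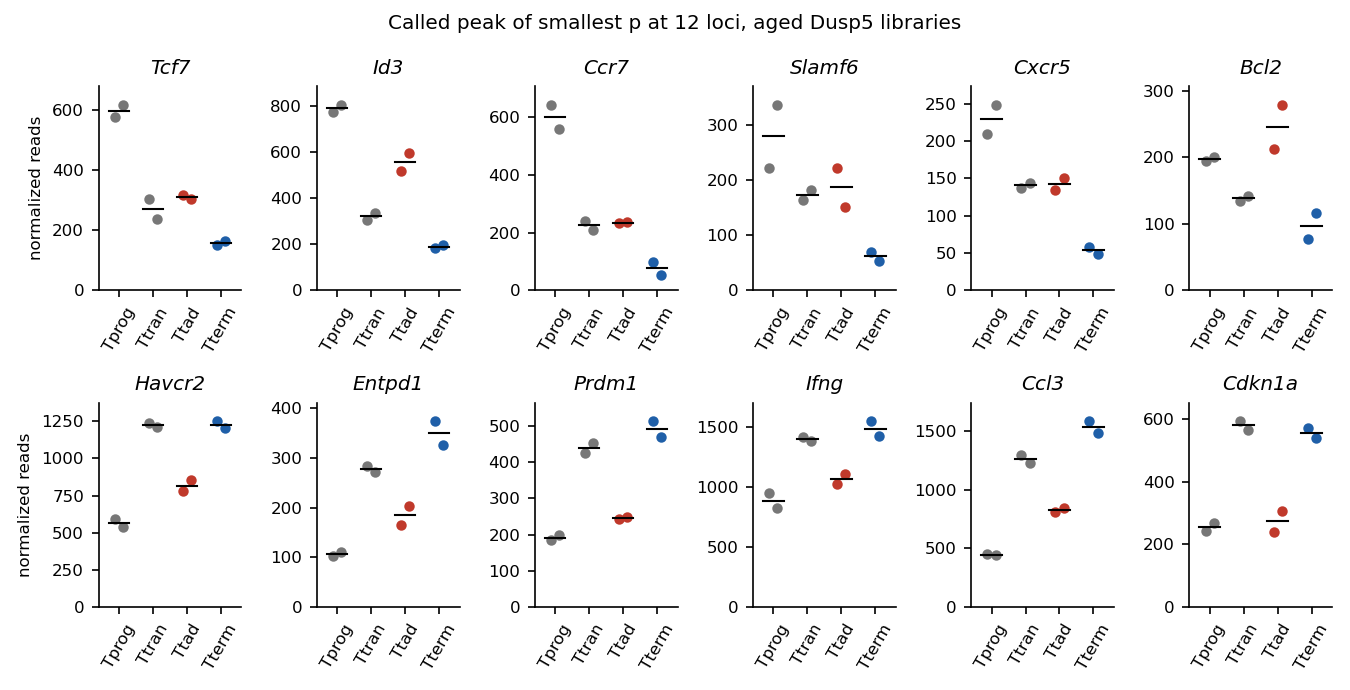
Normalized reads (y axes, from 0) at the called peak of smallest p of 12 genes in each aged Dusp5 library, by sorted state (x axes), with points for libraries and lines for means of 2. In the upper row the Ttad points (red) lie above the Tterm points (blue), and in the lower row they lie below. Havcr2, in the lower row, encodes the sorted marker Tim-3, so its panel touches the sort.

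Genes of the terminal state were lower in Ttad at several loci, but not at all of them. Of 204 peaks at 18 terminal exhaustion genes, 26 were lower (12.7%, against 3.96% of all peaks) and 8 higher, and 23 and 4 were called by both tools. Without Tterm replicate 2 the counts were 12 and 3. The median log2 fold change was -0.04. The lower peaks lay at 9 genes, with 8 at Prdm1 and 4 each at Havcr2, Entpd1 and Id2. These 4 genes had 5, 1, 4 and 0 lower peaks without Tterm replicate 2. The 4 Havcr2 peaks touch the sort.

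Prdm1, which encodes the terminal differentiation factor BLIMP-1, had 8 of 22 peaks lower and none higher. Its peak of smallest p, within the gene (chr10:44449764-44451102), held 242 and 249 reads in Ttad and 514 and 468 in Tterm. The Ttad values were close to one another and far below both Tterm values (log2 -0.997 ± 0.14, adjusted p = 7.51e-08). Havcr2, which encodes the sorted marker Tim-3, had 4 of 5 peaks lower. Its promoter peak (chr11:46452770-46455391) held 778 and 854 reads in Ttad and 1251 and 1205 in Tterm (log2 -0.59 ± 0.08, adjusted p = 1.95e-07), and because cells were sorted on Tim-3 this difference touches the gate and is no finding.

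Entpd1, the ectonucleotidase CD39 of terminally exhausted cells, had 4 of 12 peaks lower. Its promoter peak held 384 and 388 reads in Ttad and 578 and 587 in Tterm, and a peak within the gene held 166 and 204 against 375 and 326 (log2 -0.92 ± 0.16, adjusted p = 1.64e-05). Neither pair of groups overlapped. Tox, a factor that maintains the exhausted state, moved the other way, with 3 of 27 peaks higher and 495 and 518 against 359 and 331 reads at the peak of smallest p (log2 0.55 ± 0.11, adjusted p = 0.0003). Pdcd1, which encodes PD-1, had no called peak, and its strongest held 2536 and 2650 reads in Ttad and 2585 and 2478 in Tterm. The adjusted p of that peak was 0.793, with overlapping values.

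Effector and cytotoxic genes were mostly lower in Ttad where they were called. Of 162 peaks at 20 genes, 35 were lower (21.6%, against 3.96% of all peaks) and 5 higher, and 31 and 4 were called by both tools. The median log2 fold change was -0.23, and without Tterm replicate 2 the counts were 19 and 2. The chemokine genes Ccl3, Ccl4 and Ccl5, which recruit further immune cells, had 3 of 3, 5 of 5 and 5 of 7 peaks lower, and 2, 3 and 3 without Tterm replicate 2. RefSeq's Ccl4 model reaches over Ccl3, so peaks near the Ccl3 start were counted under Ccl4.

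The Ccl3 peak of smallest p (chr11:83628444-83630271) held 813 and 841 reads in Ttad and 1587 and 1482 in Tterm. The log2 fold change was -0.89 ± 0.08 (adjusted p = 4.79e-14), and a lack of overlap was required of this peak by the rule that chose it. At Ccl5 the corresponding values were 302 and 244 against 574 and 466 reads (log2 -0.93 ± 0.14, adjusted p = 9.81e-07). Ifng, which encodes interferon gamma, had 9 of 27 peaks lower and none higher, and 7 lower without Tterm replicate 2. Its strongest peak, also the one of smallest p (chr10:118468895-118471093), held 1026 and 1103 reads in Ttad and 1547 and 1419 in Tterm (log2 -0.48 ± 0.08, adjusted p = 8.44e-06), so both Ttad libraries lay below both Tterm libraries.

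Klrg1, a receptor of effector cells, had 3 of 9 peaks lower, with 268 and 219 against 387 and 473 reads at the peak of smallest p (log2 -0.82 ± 0.14, adjusted p = 2.22e-05). The granule protease gene Gzmb had 2 of 9 peaks lower, at one of them 453 and 506 against 660 and 704 reads (log2 -0.51 ± 0.11, adjusted p = 0.00109). At the Gzmb and Prf1 promoters the differences were smaller, 702 and 762 against 925 and 916 reads and 1247 and 1337 against 1454 and 1704 reads, and without Tterm replicate 2 neither was called (adjusted p = 0.103 and 0.445). Ttad replicate 1 also decided both calls (adjusted p = 0.175 and 0.169 without it), and Tterm replicate 1 that of Gzmb (0.0715). Cx3cr1, a chemokine receptor of circulating effector cells, went the other way, with 2 of 5 peaks higher and 426 and 428 against 241 and 147 reads (log2 1.18 ± 0.16, adjusted p = 7.99e-08).

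**Figure D3:**
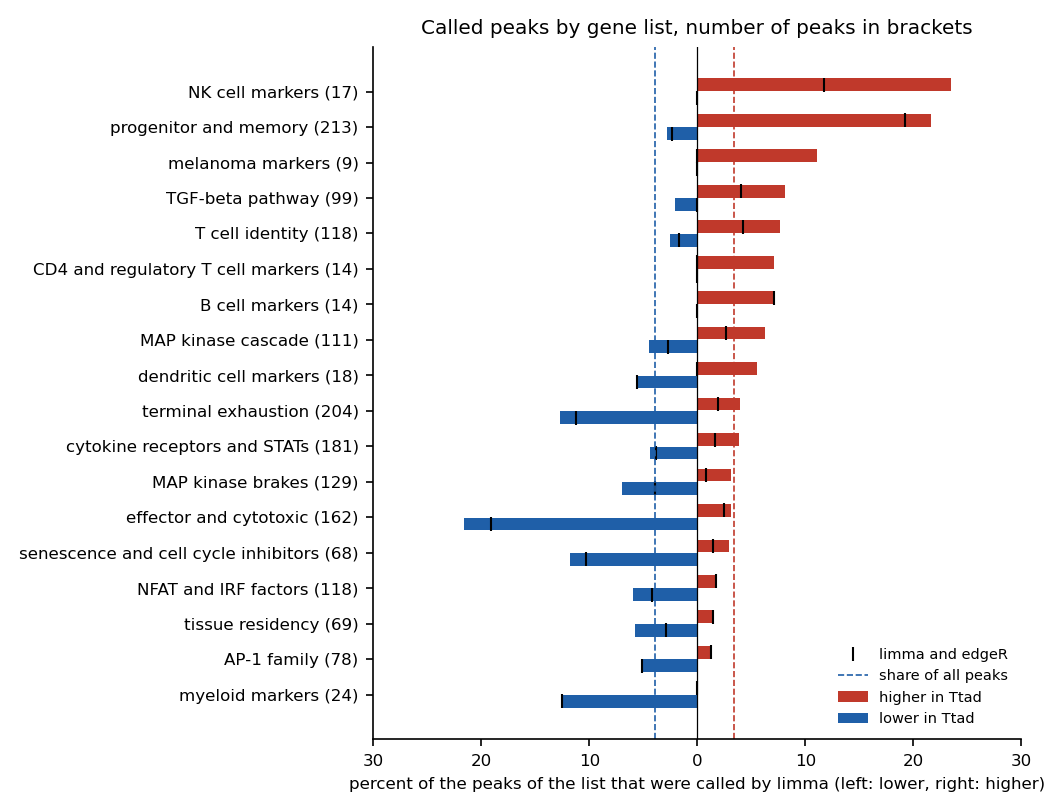
Percent of the peaks of each gene list that limma called higher (red, right) or lower (blue, left) in Ttad, with black ticks for calls by limma and edgeR and dashed lines for all peaks (3.38% and 3.96%). The longest bar to the right is that of NK cell markers (23.5%, 4 of 17 peaks), followed by progenitor and memory peaks (21.6% of 213), with effector and cytotoxic peaks longest to the left (21.6%), and lists under 25 peaks rest on 1 to 4 calls each.

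Cell cycle inhibitors were examined because the label calls Ttad age-associated, and the list was made with earlier results of these data known. Of 68 peaks at 11 senescence and cell cycle inhibitor genes, 8 were lower (11.8%, against 3.96% of all peaks) and 2 higher (2.94%, against 3.38%), or 3 and 1 without Tterm replicate 2. Of the lower peaks, 4 belonged to Cdkn1a, which encodes the cell cycle inhibitor p21 and has 7 peaks. At the Cdkn1a peak of smallest p Ttad held 240 and 307 reads and Tterm 571 and 538 (log2 -1.03 ± 0.13, adjusted p = 2.01e-08). The groups did not overlap at that peak. Cdkn2a, which encodes p16, had no called peak.

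The Dusp5 promoter did not pass the test. ATAC-seq does not show whether the guide cut, so the values at Dusp5 do not check the label. The Dusp5 promoter peak (chr19:53528476-53530901) held 864 and 917 reads in Ttad and 865 and 900 in Tterm, with overlapping values (log2 0.01 ± 0.08, adjusted p = 0.957). Of the 17 peaks assigned to Dusp5, 3 were lower in Ttad, against 3.96% of all peaks. In OTC cells 2 of the 17 were lower and in Zfp219 cells 1. The 2 that edgeR also called in the Dusp5 cells lay 67133 and 63833 bp from the gene, over start sites of other transcripts. The nearer of these held 715 and 662 reads against 913 and 1026 (log2 -0.49 ± 0.10, adjusted p = 0.000544) and was not called without Tterm replicate 2 (adjusted p = 0.0528).

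Among 15 genes of MAP kinase brakes, phosphatases and adaptors that dampen the cascade, 9 of 129 peaks were lower (6.98%, against 3.96% of all peaks) and 4 higher (3.10%, against 3.38%), 5 and 1 by both tools and 3 and 1 without Tterm replicate 2. At Dusp14, which encodes another phosphatase of this family, a peak called without each library held 135 and 165 reads in Ttad against 328 and 322 in Tterm (log2 -1.12 ± 0.20, adjusted p = 2.94e-05). Among 16 genes of the cascade itself, 7 of 111 peaks were higher (6.31%) and 5 lower (4.50%), 3 each by both tools and 4 and 2 without Tterm replicate 2.

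Other lists are given against the 3.38% of all peaks that were higher and the 3.96% that were lower. The TGF-beta pathway had 8 of 99 peaks higher (8.08%) and 2 lower (2.02%), 4 and 0 by both tools and 2 and 0 without Tterm replicate 2. Cytokine receptors and STATs had 7 of 181 higher (3.87%) and 8 lower (4.42%), and 2 and 4 without that library. NFAT and IRF factors had 2 of 118 higher (1.69%) and 7 lower (5.93%), and 1 and 2 without it. Calls over all peaks also fell without that library, so such losses were not confined to these lists. The AP-1 family had 1 of 78 higher and 4 lower (5.13%), and 1 and 3 without it. Tissue residency genes had 1 of 69 higher (1.45%) and 4 lower (5.80%), and 1 and 0 without it. Calls at Ifngr2 and Ifngr1, the subunits of the interferon gamma receptor, went in opposite directions. Ifngr2 had 2 of 5 peaks higher, and Ifngr1 had 3 of 17 lower with a median log2 fold change of -0.15 over its peaks. At one of the Ifngr2 peaks the Ttad libraries held 1616 and 1494 reads and the Tterm libraries 1136 and 1116 (log2 0.46 ± 0.07, adjusted p = 3.46e-06). One of the Ifngr1 peaks held 139 and 130 against 275 and 228 (log2 -0.89 ± 0.17, adjusted p = 8.19e-05). T cell identity genes had 9 of 118 peaks higher (7.63%, against 3.38% of all peaks) and 3 lower (2.54%, against 3.96%), or 4 and 2 without Tterm replicate 2. The peak over the Cd3g and Cd3d promoters, genes of T cell receptor subunits, held 605 and 740 reads in Ttad and 493 and 510 in Tterm (log2 0.41 ± 0.10, adjusted p = 0.0039). It was not called without Ttad replicate 2 (adjusted p = 0.218).

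Markers of other cells were called at some loci, on few peaks per list. Summed normalized reads over 17 peaks of NK cell genes were 4397 to 4514 in Ttad and 3445 to 3842 in Tterm, with 4 peaks higher (23.5%, against 3.38% of all peaks), at Klra8, Klra4 and Tyrobp. Of these 2 were called by both tools, and without Tterm replicate 2 the list had 1 higher peak. Klra genes are near-identical copies, so read placement there is uncertain. Myeloid gene peaks, 24 in number, summed to 4579 to 4728 reads in Ttad and 5340 to 5594 in Tterm, and their 3 lower peaks (12.5%, against 3.96% of all peaks) were all at Fcgr3, with 2 lower peaks without Tterm replicate 2. Dendritic cell genes had 1 peak higher and 1 lower of 18 (5.56% each), with sums of 3441 to 3628 and 3925 to 4084 reads. B cell genes had 1 of 14 peaks higher (7.14%), at Cd22, CD4 and regulatory T cell genes 1 of 14, at Cd40lg, and melanoma genes 1 of 9 (11.1%), at Pmel. Of these 3 peaks, the one at Cd22 was called without Tterm replicate 2. The part of such cells in the differences above was not tested.

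Of 14954 genes with a peak, 2642 had a called peak. Among genes with calls in 1 direction, 67 had at least 3 peaks higher and none lower, and 110 had at least 3 lower and none higher. Those with many higher peaks included Arhgef3, a RhoA exchange factor, with 10 of 36, then Ccr7 with 8 of 11 and Fam53b with 8 of 15. Tcf7 had 7 of 12, Dapl1 7 of 14 and Rad51b 7 of 43. Bach2 had 6 of 35, Zfand3 6 of 17 and Bcl2 6 of 23. Another 177 genes had calls in both directions. Beside Ifng and Prdm1, genes with many lower peaks included Cdk6, a cell cycle kinase, with 7 of 23. Rgs3, a regulator of G protein signalling, had 7 of 31 lower, Agpat4 6 of 10, Lamc1 6 of 11 and Auh 6 of 19. Genes with many peaks have more chances to be called.

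The 20 peaks of smallest p were picked by p in these same libraries, so their small p-values are no separate support. Among those higher in Ttad, a peak within Asap1, which encodes an Arf GTPase-activating protein, held 652 and 595 reads in Ttad and 239 and 179 in Tterm (log2 1.58 ± 0.12, adjusted p = 3.96e-18). A peak 961 bp from Ccr6, the receptor for the chemokine CCL20, held 378 and 466 reads against 101 and 37.3 (log2 2.75 ± 0.24, adjusted p = 1.14e-15). Within Sox6, an HMG-box factor, Ttad held 513 and 632 reads and Tterm 180 and 170 (log2 1.70 ± 0.15, adjusted p = 1.14e-15). Lack of overlap between the groups was required of the peaks named here and holds at 43.6% of all peaks, so it is no finding. The others were at 1700025G04Rik, Lrig1, Id3, Rtn3, Rpl11, Arhgef3 and Plaur, with log2 fold changes of 0.92 to 1.92.

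Among those lower in Ttad, a peak at the start of St3gal6, a sialyltransferase gene, held 363 and 391 reads in Ttad and 861 and 1121 in Tterm (log2 -1.38 ± 0.14, adjusted p = 2.3e-12). A peak within Jazf1, a zinc finger gene, held 87.9 and 110 reads against 343 and 333 (log2 -1.77 ± 0.22, adjusted p = 1.19e-08). Here too the choice of peaks required that the groups not overlap. The rest, at Ccl3, Edem3, Synj2, Sv2c, Adrb1, Upf1, Tctex1d4 and Auh, had log2 fold changes of -0.52 to -1.34.

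The largest fold changes were at weak peaks. Chst15, a sulfotransferase gene, had a peak 91653 bp away with 77.7 and 38.4 reads in Ttad and 4.83 and 4.66 in Tterm (log2 3.28 ± 0.56, adjusted p = 1.64e-05). Near Cd70, which encodes the ligand of the costimulatory receptor CD27, Ttad held 67.4 and 100.3 reads and Tterm 12.5 and 6.99 (log2 2.9995 ± 0.53, adjusted p = 2.93e-05). Tnfsf8, which encodes CD30 ligand, had 61.5 and 65.2 reads against 3.86 and 18.6 (log2 2.72 ± 0.50, adjusted p = 6.44e-05). These and the Ccr6 and Rfx8 peaks were called without Tterm replicate 2, while those at Babam2, Cxadr, Xcl1, Atrnl1 and Rsu1 were not (adjusted p = 0.246, 0.526, 0.0638, 0.161 and 0.266).

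Among the largest falls, a peak within Ptpn12, a tyrosine phosphatase gene, held 10.3 and 20.1 reads in Ttad and 89.8 and 97.9 in Tterm (log2 -2.62 ± 0.40, adjusted p = 1.43e-06). One within Itgb3, the integrin beta 3 gene, held 13.2 and 6.68 against 61.8 and 55.9 (log2 -2.52 ± 0.50, adjusted p = 0.000233). The groups could not overlap at either, by the rule that chose these peaks. The other 8 were at Itm2b, Jazf1, Hes1, Dnajc8, Ccdc54, 1810013L24Rik, Mt3 and Rab31. Without Tterm replicate 2 the Ccdc54 and 1810013L24Rik peaks were not called (adjusted p = 0.05005 and 0.0959), and the Ccdc54 peak was not called by edgeR either (adjusted p = 0.0621).

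Control cells and Zfp219 cells offered the same comparison in libraries of their own. In aged OTC cells, the control by its label, 3921 peaks were called between Ttad and Tterm (7.28%), and in aged Zfp219 cells 942 (1.75%). The order of these counts depends on the fit: with only the compared groups fitted, Zfp219 had 2791 calls and Dusp5 1310, and with 1 library left out Zfp219 had 247 to 320. Of the Dusp5 calls, 1354 were called in the same direction in OTC, 34.2% of the Dusp5 and 34.5% of the OTC calls, and 15 in the opposite direction. With Zfp219 the shared number was 521, 13.2% of the Dusp5 and 55.3% of the Zfp219 calls, with 3 opposite. Peaks higher in all 3 numbered 127 and peaks lower in all 3 numbered 277. Several gene lists had counts in OTC close to those in Dusp5. OTC had 1627 peaks higher and 2294 lower in all. Of 213 progenitor and memory peaks, 43 were higher and 5 lower. Terminal exhaustion genes had 5 and 23 of 204, and effector and cytotoxic genes 2 and 33 of 162. Senescence and cell cycle inhibitor genes had 2 and 6 of 68. In Zfp219 the same lists had 18 and 2, 2 and 10, 1 and 11, and 2 and 3. Differences between guides in these counts were not tested. The main fit pooled the spread of each peak over all 48 libraries and did not use the spread of each guide alone. Counts also depend on depth, so a smaller count does not show a smaller difference.

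The size of the difference could be read side by side. Peaks higher in Dusp5 Ttad had a median log2 fold change of 0.85 there, 0.38 in OTC and 0.25 in Zfp219, and the lower peaks -0.78, -0.44 and -0.34, but the peaks were chosen on the Dusp5 values, which raises these. At Id3 the log2 fold changes of the peak of smallest p were 1.55 ± 0.18 in Dusp5, 1.05 ± 0.18 in OTC and 0.76 ± 0.18 in Zfp219 (SE). At the first Ccl3 peak they were -0.89 ± 0.08, -0.76 ± 0.08 and -0.42 ± 0.08. Neither gene passed the test of the difference against OTC (adjusted p = 0.49 and 0.77).

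**Figure D4:**
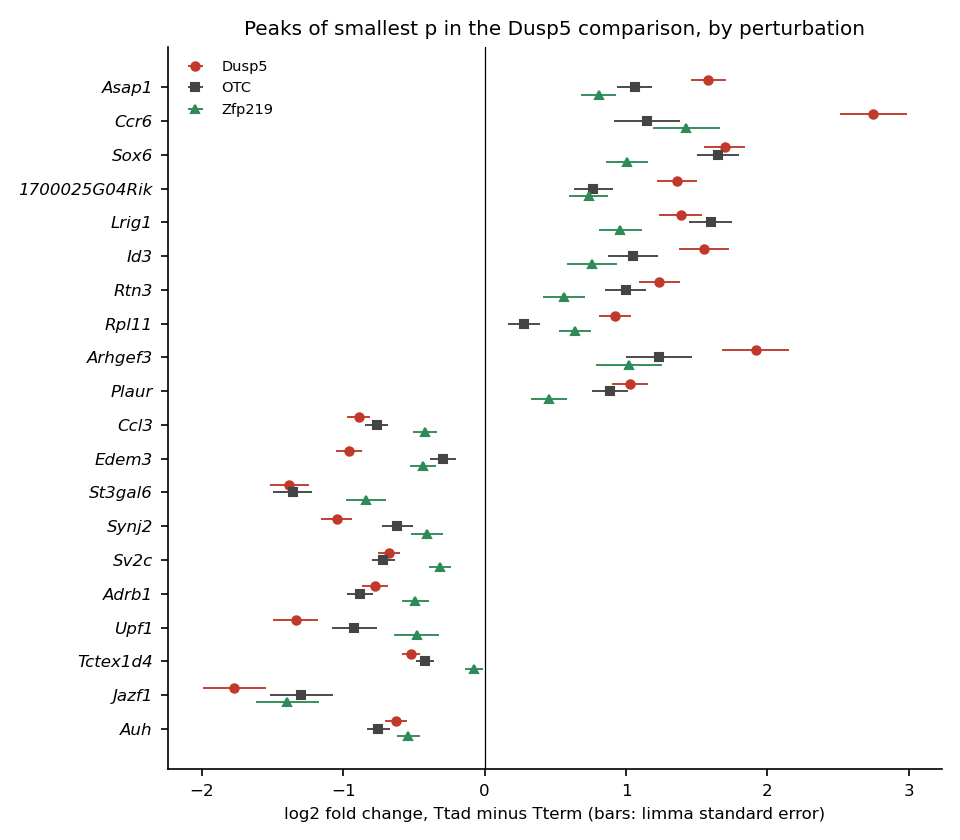
Log2 fold change of Ttad against Tterm (x axis, bars are limma standard errors) at the 20 peaks of smallest p in the Dusp5 comparison, for aged Dusp5, OTC and Zfp219 cells. The errors come from a spread pooled over all 48 libraries. The 3 groups share a direction at all 20, from -1.77 to 2.75 in Dusp5, and Ccr6 and Edem3 are the peaks furthest from OTC relative to their errors.

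The difference itself was tested by an interaction. Against OTC, 116 peaks passed (0.215%), 53 with a more positive and 63 with a more negative change in Dusp5 (0.0984% and 0.117%), and 51 of them also passed in edgeR (0.0947%), 11 and 40 by direction. Without Tterm replicate 2 the number was 36, and without Tterm replicate 1 it was 443. Against Zfp219, 10 peaks passed (0.0186%), 6 of them in edgeR (0.0111%). At an unadjusted p under 0.05 there were 5424 and 4212 peaks by limma. Peaks near Ccr6 and within Edem3, an ER degradation gene, were among those that passed against OTC by both tools.

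Near Ccr6, the log2 fold change was 2.75 ± 0.24 in Dusp5 and 1.15 ± 0.24 in OTC, an interaction of 1.60 ± 0.33 (limma adjusted p = 0.00887, edgeR 0.031). Within Edem3, Dusp5 Ttad held 451 and 538 reads and Tterm 1032 and 893, a log2 fold change of -0.96 ± 0.09 against -0.30 ± 0.09 in OTC (interaction -0.66 ± 0.13, limma adjusted p = 0.00394, edgeR 0.00426). The Edem3 values of the Dusp5 groups did not overlap, as was required of peaks named by smallest p.

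Of the 116 peaks, 16 passed without each of the 8 libraries, and 15 of these were more negative in Dusp5. Of the 16, 6 lay on unplaced scaffolds, against 110 of all 53868 peaks (0.204%), and these 6 and another 2 had no gene within 100 kb, so that 8 of the 16 had no gene, against 5.12% of all peaks. One peak on such a scaffold, singled out here after its values were seen, held 195840 and 204245 normalized reads in Dusp5 Ttad, 242780 and 241557 in Dusp5 Tterm, 131959 and 133680 in OTC Ttad and 86161 and 88474 in OTC Tterm. The order of the states was thus opposite in Dusp5 and OTC, and Dusp5 lay above OTC in both.

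The aged Dusp5 states were also placed on peaks defined in other libraries. In young OTC cells, 14279 peaks (26.5%) differed between Tprog, the Slamf6-positive progenitor state, and Tterm, and these were split into 7512 progenitor-open and 6767 terminal-open peaks. Of the progenitor-open peaks, 1115 were higher in Dusp5 Ttad than Tterm (14.8%, against 3.38% of all peaks) and 53 lower (0.706%, against 3.96%). Of the terminal-open peaks, 1234 were lower (18.2%, against 3.96%) and 36 higher (0.532%, against 3.38%). Thus 61.2% of the higher and 57.8% of the lower calls lay in the matching set, and 36.8% and 39.7% lay in neither. Of all 53868 peaks, 7512 were progenitor-open, 6767 terminal-open and 39589 neither.

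On the progenitor-open peaks the mean log2(normalized reads + 1) was 7.39 in both Dusp5 Tprog libraries, 7.11 and 7.15 in Ttad, 7.01 and 6.99 in Ttran (positive for Slamf6 and Tim-3) and 6.82 and 6.76 in Tterm. Ttad lay between Ttran and Tprog without overlap, 56.7% of the way from Tterm to Tprog by group means. On the terminal-open peaks Ttad was 49.2% of the way. The corresponding figures were 51.9% and 58.0% in OTC and 33.7% and 42.2% in Zfp219, and these differences were not tested.

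**Figure D5:**
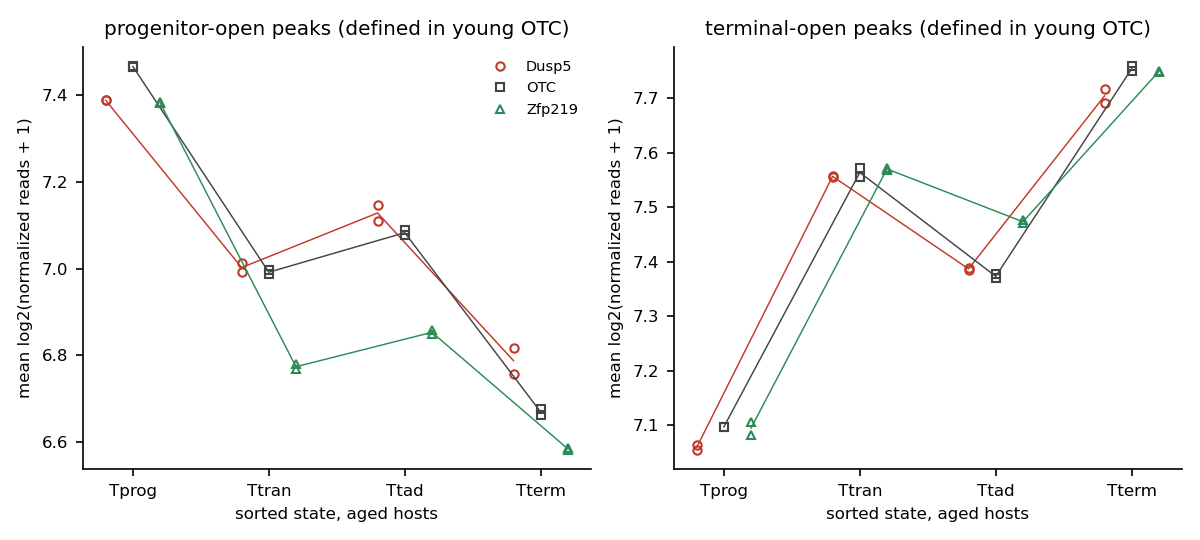
Mean log2(normalized reads + 1) over progenitor-open (left) and terminal-open (right) peaks in each aged library, by sorted state (x axis) and guide, with lines joining means of 2 libraries. In all 3 guide groups Ttad lies between Tprog and Tterm, and in Dusp5 at 7.11 and 7.15 on the left panel.

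Ttad also differed from the progenitor state. Against aged Dusp5 Tprog, 3949 peaks were called (7.33%), 2467 higher (4.58%) and 1482 lower (2.75%) in Ttad, and against aged Dusp5 Ttran 2475 (4.59%), 832 higher (1.54%) and 1643 lower (3.05%). These comparisons share the Ttad libraries with the one above, so no overlap is given. At the Tcf7 peak of smallest p, Tprog held 579 and 619 reads, above Ttad by a log2 difference of 0.94 (adjusted p = 2.07e-07), so Ttad was intermediate. At the Ccr7 peak, Tprog held 645 and 560 reads, above Ttad by 1.35 (adjusted p = 3.7e-05). At the Ccl3 peak Tprog held 448 and 440 reads, below Ttad, which was higher by 0.89 (adjusted p = 1.98e-14).

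Other loci stood nearer to Tprog than to Tterm. The Cdkn1a peak held 241 and 269 reads in Tprog against 240 and 307 in Ttad (log2 0.09, adjusted p = 0.761), the Klrg1 peak 226 and 225 against 268 and 219 (0.10, 0.759) and the Bach2 peak 516 and 377 against 428 and 423 (-0.05, 0.906). Those values overlapped at all 3 peaks, which does not show that the states are alike there.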

How the data were processed

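ATAC-seq signal in 53868 peaks was analysed in 48 libraries of 21 groups. The deposited signal values are read counts per peak that the authors divided by a factor for each library, as the steps of the values show: all values were whole multiples of 1 read within 0.001 reads. Per the submitters' processing notes, Bowtie2 2.2.9, SAMtools 1.3.1, Picard 2.8.0, MACS2 2.1.1, DESeq2 1.28.1 and the build mm10 were used, with no order or settings given. Coordinates are printed as deposited.

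limma 3.58.1 in R 4.3.3 was fitted to log2(value + 1) of all 48 libraries by group (trended empirical Bayes, 27 residual degrees of freedom), with Benjamini-Hochberg adjustment over all peaks and a threshold of 0.05. edgeR 4.0.16 (quasi-likelihood) and DESeq2 1.42.0 were run on recovered whole reads as alternatives, and the scripts were tested on simulated data. Adding 1 understates fold changes of weak peaks. Each peak was given the protein-coding gene it overlaps most, or the nearest within 100 kb (51109 peaks), which need not be its target. Promoter windows span 250 bases before to 50 after a RefSeq start on GRCm38.p6, and the 1520 peaks of chromosome 18 had none. Of 218 listed genes, 163 had a promoter entry.

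Named peaks were the 10 largest rises and falls and the 10 of smallest p in each direction (no overlap between groups, a gene within 100 kb, a mean of at least 50 in the higher group), the strongest and smallest-p peaks of listed genes, all Dusp5, Slamf6 and Havcr2 peaks, the 5 largest interactions in each direction and the 8 genes with most calls each way. Some named items are not reported here. Promoter peaks of listed genes and the scaffold peak were added after their values were seen. The members and lists were chosen with earlier results of these data known. Replicates of a group differed by more than counting noise (chi-square per degree of freedom 3.17 in Ttad and 2.96 in Tterm). Other libraries were used only for the spread and the comparisons named.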

Additional observations from a re-analysis of the deposited data

Results flagged for a closer look

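The change between Ttad and Tterm was tested for a difference between guides, and peaks that passed that test (limma interaction, Benjamini-Hochberg adjusted p under 0.05) are given here. There were 116 against OTC and 10 against Zfp219.

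Thy1, which encodes a surface glycoprotein of T cells, had 1 such peak of its 14 (chr9:44046603-44047436, within the gene). Dusp5 Ttad held 208 and 172 normalized reads and Dusp5 Tterm 129 and 117, while OTC Ttad held 4884 and 4611 and OTC Tterm 959 and 829. The OTC values lay far above the Dusp5 values in both states. The interaction was -1.79 on the log2 scale (adjusted p = 5.39e-10, edgeR 1.13e-12). Against Zfp219 it was -1.61 (adjusted p = 1.13e-07), with 567 to 668 reads in Zfp219 Ttad and 125 to 135 in Tterm. Aged Ttran libraries held 2944 to 3051 reads in OTC, 3153 to 3158 in Zfp219 and 193 to 266 in Dusp5. The 3 aged Tprog groups ranged from 122 to 222 reads.

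The 5 largest positive differences from OTC were near or within Kdm5c (3.28), Dse (3.17), Anapc13 (2.37), Hivep1 (2.29) and Dapk2 (2.23), in log2 units. Of these the Hivep1 peak alone also passed in edgeR (adjusted p = 0.0177). At Kdm5c, a histone demethylase gene, Dusp5 held 49.8 and 53.5 reads in Ttad against 25.1 and 6.99 in Tterm, and OTC 10.1 and 20.9 against 39.2 and 42.2. The order of the states was opposite, with few reads behind each value.

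The 5 largest negative differences were at Nlrp1b (-2.91), Trak2 (-2.005), Arap3 (-1.92), Fyn (-1.90) and Thy1, of which Nlrp1b, Fyn and Thy1 passed in edgeR. At the promoter of Nlrp1b, an inflammasome sensor gene, Dusp5 held 23.4 and 11.7 reads in Ttad against 59.9 and 60.6 in Tterm, and OTC 35.2 and 32.0 against 15.3 and 14.7. Near Fyn, a Src family kinase gene, the values were 71.8 and 83.6 against 110.3 and 158 in Dusp5 and 116 and 123 against 39.2 and 73.3 in OTC. None of these 10 peaks other than Thy1 passed in every fit that left out 1 of the 8 libraries.

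Among the peaks of smallest p, Ccr6 (1.60), Rpl11 (0.64) and Edem3 (-0.66) differed from OTC and Tctex1d4 (-0.44, adjusted p = 0.0216) from Zfp219. The Rpl11 peak did not pass in edgeR (adjusted p = 0.0925).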

How the results depend on the processing

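The 3955 Ttad against Tterm calls became 1310 when only the groups compared were fitted, 1715 with library quality weights and 2147 after thinning to 5638413 reads, and 1557 to 4115 when 1 library was left out. Without Tterm replicate 1, 2382 of 4115 were higher, a different split from 46.0% higher overall. The OTC count became 2431 after thinning and 1908 to 2813 without 1 library. The Zfp219 count of 942 became 1909 in DESeq2, 1422 in edgeR, 2791 with its groups only, 3147 with weights, 558 after thinning and 247 to 320 without 1 library. The 116 differences from OTC became 51 in edgeR, 28 with groups only, 35 with weights, 33 after thinning and 36 to 443 without 1 library. The 10 from Zfp219 became 40 in DESeq2, 6 in edgeR, 4 with groups only, 5 after quantile normalization and 7 to 317 without 1 library. Against Tprog the count was 2313 with groups only and 1781 to 2941 without 1 library, and against Ttran 1262 with groups only, 1599 with weights and 853 to 1513 without 1 library. The cause was not tested, beyond fewer libraries or reads in some fits. With the replicate number as a block (replicate block) 3862 peaks were called. Replicate differences of Ttad and Tterm did not correlate across peaks (-0.002), which cannot show whether the pools were paired. Whether Ttad and Tterm pools came from the same mice is not stated. Of the alternatives for named peaks, 1005 kept direction and call, 115 lost the call, 4 gained it and none reversed. Counts of list peaks moved by over 1.5 times in 74 of 144 cases. Depth limits weak peaks, and 3 reads in Tterm replicate 2 were worth 6.99 normalized reads.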
